A study of Mus musculus with 32 samples.

Results

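Haematopoietic stem cells (HSCs), the self-renewing cells at the root of blood formation, were compared between adult bone marrow and fetal liver, in unmutated cells throughout. The comparison covered 10 of the series' 32 libraries, chosen by genotype and tissue from the sample labels, and 7 of them formed the main comparison. Adult marrow HSCs were 4 libraries wild type for PRDM16, a zinc-finger transcription factor needed to maintain HSCs. Fetal liver HSCs came in 2 groups of 3 wild-type libraries: one from the line bred for study of the full-length form of the protein, labelled f-PRDM16 (f line), and one from the line bred for loss of all PRDM16 (total line). Every library was made from sorted cells that carried Sca-1 and Kit and lacked lineage markers and CD48; CD150 is not among the markers the labels list. The cells were profiled without culture or treatment. Their RNA was extracted with Trizol and amplified with the SMARTer low-input kit. The adult and total-line libraries are labelled PRDM16WT and the f-line ones 47bpWT_FPRDM16WT. Whether a wild type carries other alleles, as well as strain, age, day of gestation, sex and the number of animals behind each library, is not given in the labels.

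The main comparison was adult marrow HSCs against f-line fetal liver HSCs, and total-line fetal liver HSCs served to check its directions. The 3 groups stand in separate deposited tables. In the main comparison stage, table and line cannot be told apart. In the direction check stage and table cannot be told apart, while both groups carry the same genotype label. The 2 fetal comparisons use the same adult libraries and are therefore not independent. The replicates are independent per the design text, with no source named for each, so p-values measure only the spread between these samples. Values are in CPM, a gene's count over the library total scaled with TMM factors of the 10 libraries, and numbers after ± are the standard error (SE) of a log2 change. A log2 change is adult over fetal, and a gene passed at an adjusted p of 0.05 in edgeR's quasi-likelihood test. Because whole sorted populations were sequenced, fewer cells of a kind and less RNA per cell cannot be told apart.

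Fetal liver HSCs divide often while the blood system expands, whereas most adult marrow HSCs rest between rare divisions. The RNA-binding protein LIN28B, which blocks maturation of let-7 microRNAs, and its targets IGF2BP and HMGA2 are textbook fetal regulators. Adult HSCs are known for niche and adhesion receptors, for cell cycle inhibitors, and for a bias of part of the pool towards megakaryocytes, the platelet-forming cells.

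Library totals were 25144746 to 29343602 counts in adult marrow HSCs, 35503288 to 44381219 in f-line fetal liver HSCs and 26673671 to 33196697 in total-line fetal liver HSCs. The total-line table has a make-up of its own: genes named Gm and a number made up 9.94 to 10.3% of each wild-type library there, against 0.249% or less in the other 7, and Cdkn2d alone made up 5.37 to 5.56%. Some genes near 0 in both other tables are high there, and its values are printed beside the f-line ones also where the 2 fetal groups stand far apart. Granulocyte genes set the f-line libraries apart: their summed level over 26 genes was 798 to 941 CPM in adult marrow HSCs, against 8612, 3905 and 24642 CPM in f-line and 356 to 2826 CPM in total-line fetal liver HSCs. Monocyte genes summed to 410.4 to 509 CPM in adult marrow HSCs, 1166, 457 and 1959 CPM in f-line and 200.0 to 365 CPM in total-line fetal liver HSCs. The part of such cells in the results was not tested, and several genes that they also express are given with the total-line values. Xist and Y-linked transcripts were both present in all 4 adult libraries, and none of the 6 sex-linked transcripts tested passed in the main comparison.

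Of 14033 genes tested, 4329 passed between adult marrow and f-line fetal liver HSCs, or 30.8%. In adult marrow HSCs 2202 were higher, 15.7% of those tested, and 2127 were lower, 15.2%. The median change of all genes was 0.04 on the log2 scale. With upper-quartile scaling 4266 genes passed, 2632 higher and 1634 lower, at a median of 0.19, so the even split depends on the scaling. Leaving out f-line replicate 1 left 2574 genes, 1309 higher and 1265 lower. Against total-line fetal liver HSCs, 7131 of 15218 genes passed, or 46.9%, with 3186 higher (20.9%) and 3945 lower (25.9%). Of the 4329 genes, 4127 were also tested there and 3852 had the same sign, 93.3%. Of these, 2890 passed again with the same sign, 1602 higher and 1288 lower, while 95 passed with the opposite sign. Over the 13236 genes tested in both, passing in both with 1 sign applied to 12.1% as higher and 9.73% as lower. The 2 fetal groups themselves differed in 4751 of 15030 genes, 31.6%, of which 3654 were higher in the total line (24.3%) and 1097 lower (7.3%).

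**Figure D1:**
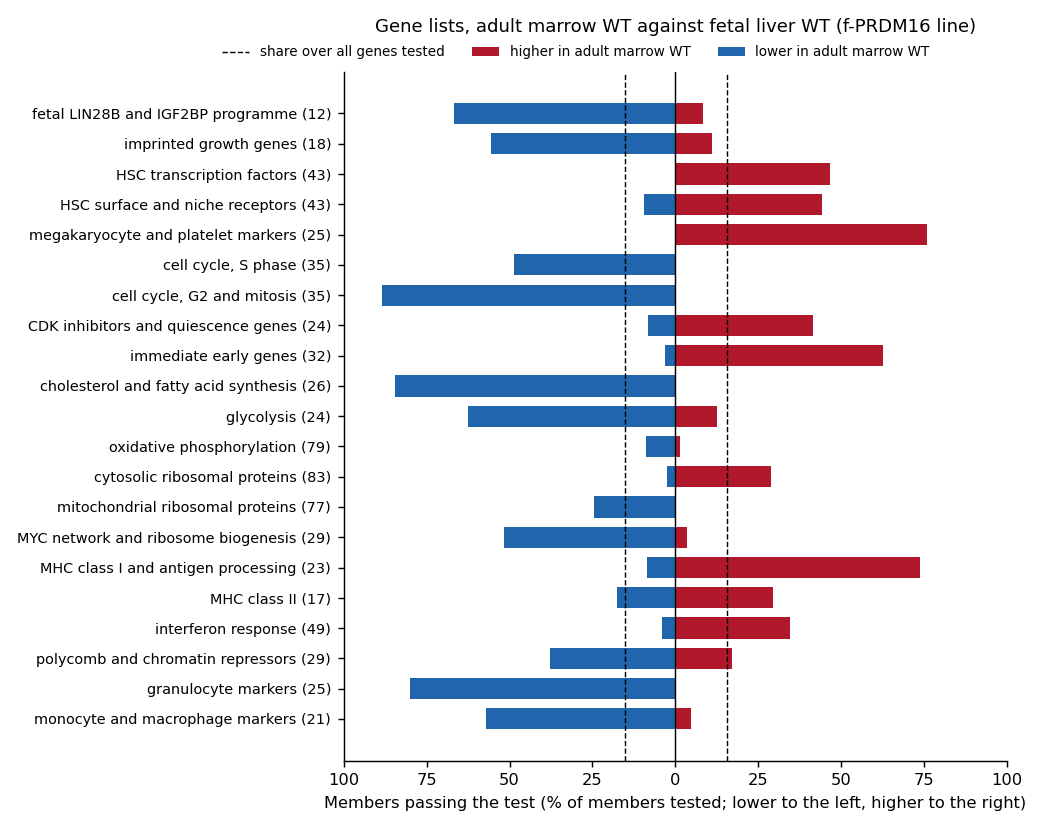
Share of the tested members of each gene list that passed as higher (right) or lower (left) in adult marrow HSCs against f-line fetal liver HSCs, in percent, with the number tested in parentheses. Dashed lines mark the shares over all genes, 15.7% higher and 15.2% lower. Megakaryocyte, MHC class I, immediate early and HSC transcription factor genes lie to the right, and mitotic, cholesterol and granulocyte genes to the left.

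Fetal regulators of the LIN28B programme were lower in adult marrow HSCs. Of 14 listed genes of the programme, 12 were tested, 8 were lower in adult marrow HSCs and 1 higher, at a list median of -2.48 log2; 7 were lower against both fetal groups. Igf2bp3, a fetal RNA-binding protein, had 1.37, 1.88, 0.834 and 1.84 CPM in adult marrow HSCs, against 192, 83.3 and 104 CPM in f-line fetal liver HSCs and 125, 120.5 and 98.5 CPM in total-line fetal liver HSCs. Its log2 change was -6.39 ± 0.40 (adjusted p = 2.15e-05) against the f line and -6.26 ± 0.30 (adjusted p = 5.66e-07) against the total line. Every adult library lay far below every fetal one.

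Its paralogue Igf2bp2 had 9.59, 3.79, 7.43 and 2.06 CPM in adult marrow HSCs, against 208, 262 and 226 CPM in f-line fetal liver HSCs (log2 change -5.33 ± 0.47, adjusted p = 0.000152). Igf2bp1 was at 0 in 2 adult libraries: it had 0.0344, 0, 0.725 and 0 CPM in adult marrow HSCs, against 80.2, 48.8 and 97.9 CPM in f-line fetal liver HSCs (log2 change -8.65 ± 0.93, adjusted p = 0.000341). For both genes the groups did not overlap, and total-line fetal liver HSCs, at 258, 263 and 200.2 CPM for Igf2bp2 and 94.1, 129.8 and 34.1 CPM for Igf2bp1, stood with the other fetal group.

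Lin28b itself had 0.344, 0, 1.59 and 0.284 CPM in adult marrow HSCs, against 49.9, 21.3 and 39.00 CPM in f-line fetal liver HSCs, and 79.5, 71.3 and 47.4 CPM in total-line fetal liver HSCs (log2 change -6.05 ± 0.91, adjusted p = 0.00141, against the f line). Lin28a, its paralogue, had no count in any adult library and 1.68, 1.30 and 4.50 CPM in f-line fetal liver HSCs, which makes it at least 92.2-fold lower in adult marrow HSCs, at a floor of 3 counts per group. Hmga2, an architectural chromatin protein that let-7 represses, had 14.5, 21.2, 9.75 and 10.9 CPM in adult marrow HSCs, against 108, 65.6 and 77.5 CPM in f-line fetal liver HSCs, a log2 change of -2.56 ± 0.30 (adjusted p = 0.000505). Unlike Lin28b it was still measured in every adult library.

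Arid3a, a transcription factor under LIN28B and let-7 control, had 21.8, 21.2, 16.1 and 8.34 CPM in adult marrow HSCs, against 123, 44.6 and 101 CPM in f-line fetal liver HSCs and 56.9, 57.8 and 26.5 CPM in total-line fetal liver HSCs. It was lower against both (log2 change -2.40 ± 0.39, adjusted p = 0.00208, and -1.48 ± 0.38, adjusted p = 0.0107), with no overlap. The 1 higher member was Zcchc6, a uridylyltransferase acting on let-7 precursors, at a log2 change of 0.81 ± 0.28 (adjusted p = 0.0493). Its call was lost without any 1 library other than adult replicate 4, and it did not pass against the total line (adjusted p = 0.182). Zcchc11, its paralogue, did not pass (log2 change 0.41 ± 0.38, adjusted p = 0.432). Sox17, known for its part in fetal HSC identity, was below 1 CPM in all 10 libraries and was not tested in either adult comparison. Host transcripts of let-7 and other microRNAs gave 5 tested members in the main comparison, none of which passed, and polyadenylated host RNA does not report the mature microRNA.

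**Figure D2:**
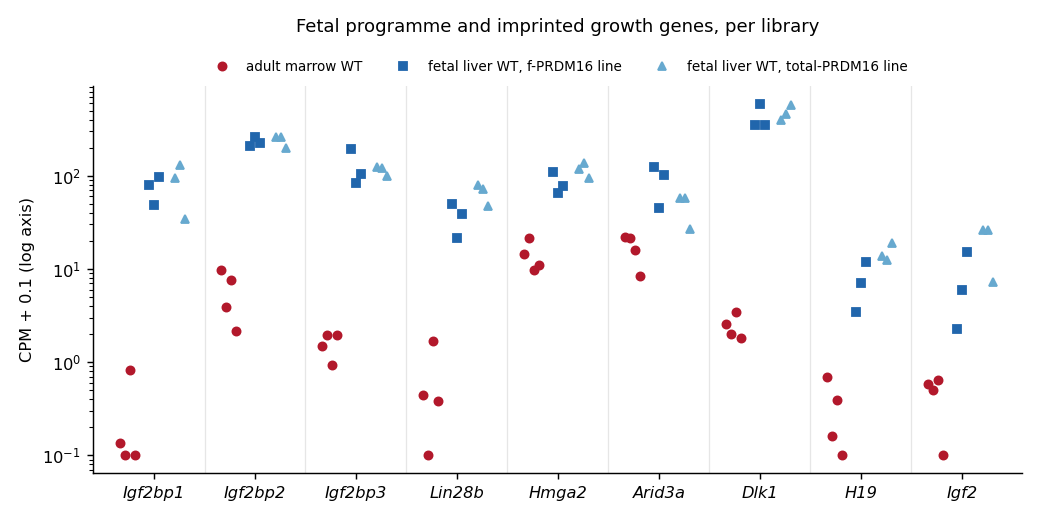
Level of 9 fetal genes in each library, in CPM plus 0.1 on a log axis, for adult marrow HSCs, f-line fetal liver HSCs and total-line fetal liver HSCs from left to right. For all 9 genes the 4 adult points lie below every fetal point of both lines.

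Imprinted growth genes, expressed from 1 parental allele and mostly active before birth, moved the same way. Of 18 tested of 21 listed, 10 were lower and 2 higher in adult marrow HSCs (median -1.19 log2), and 9 and 2 held against both fetal groups. Without f-line replicate 3, 5 were lower. Dlk1, a Notch-like ligand, had 2.44, 1.91, 3.37 and 1.70 CPM in adult marrow HSCs, against 348, 594 and 354 CPM in f-line fetal liver HSCs and 395, 454 and 569 CPM in total-line fetal liver HSCs. Its log2 change of -7.51 ± 0.34 (adjusted p = 5.97e-06) left no overlap with any of the 6 fetal libraries. Hepatoblasts also express Dlk1, and liver markers are given further on.

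The neighbouring imprinted RNAs were lower as well. Rian had 0.241, 0.251, 0.797 and 0.638 CPM in adult marrow HSCs, against 3.16, 11.1 and 4.50 CPM in f-line fetal liver HSCs (log2 change -3.68 ± 0.68, adjusted p = 0.00354). Meg3 had 3.09, 0.532, 1.27 and 0.106 CPM in adult marrow HSCs, against 9.76, 19.1 and 20.6 CPM in f-line fetal liver HSCs (log2 change -3.70 ± 0.81, adjusted p = 0.0077). On another chromosome H19, a growth-restraining RNA, had 0.584, 0.0626, 0.290 and 0 CPM in adult marrow HSCs, against 3.31, 7.02 and 11.8 CPM in f-line fetal liver HSCs (log2 change -4.94 ± 0.99, adjusted p = 0.00512). Its neighbour Igf2, the fetal insulin-like growth factor, had 0.481, 0.407, 0.544 and 0 CPM in adult marrow HSCs, against 2.18, 5.89 and 15.3 CPM in f-line fetal liver HSCs and 25.9, 26.3 and 7.15 CPM in total-line fetal liver HSCs. The adult and fetal values of Igf2 did not overlap, but its call (log2 change -4.42 ± 0.97, adjusted p = 0.00757) was lost without f-line replicate 3, the highest of its group.

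Going the other way, Mest, a hydrolase of the paternal allele, had 7.39, 9.87, 14.5 and 8.83 CPM in adult marrow HSCs, against 2.28, 3.08 and 3.50 CPM in f-line fetal liver HSCs (log2 change 1.79 ± 0.38, adjusted p = 0.00703). Phlda2, a growth-restraining placental gene, was the other higher member (log2 change 1.46 ± 0.45, adjusted p = 0.0342), a call lost without adult replicate 1, 2 or 3 or f-line replicate 1 or 3. Cdkn1c, the cell cycle inhibitor p57 that helps keep adult HSCs at rest, had 57.6, 45.5, 55.6 and 26.9 CPM in adult marrow HSCs, against 27.7, 96.8 and 114 CPM in f-line fetal liver HSCs. Those ranges overlapped and it did not pass (log2 change -0.77 ± 0.43, adjusted p = 0.192). Against the total line, at 91.7, 87.6 and 74.3 CPM, it was lower in adult marrow HSCs (log2 change -0.87 ± 0.26, adjusted p = 0.0216).

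Transcription factors of HSCs were in part higher in adult marrow. Of 43 members tested against the f line, 20 were higher, none was lower and 23 did not pass (median 1.00 log2). Against the total line 24 of 42 were higher and 2 lower, and 17 were higher against both fetal groups. Gfi1b, a repressor that restrains HSC proliferation and drives platelet and red cell formation, had 111, 143, 127 and 139 CPM in adult marrow HSCs, against 38.2, 33.3 and 28.9 CPM in f-line fetal liver HSCs (log2 change 1.97 ± 0.20, adjusted p = 0.000244). Hoxb5, a marker of long-term HSCs, had 15.8, 22.5, 13.7 and 15.1 CPM in adult marrow HSCs, against 0.725, 1.72 and 1.92 CPM in f-line fetal liver HSCs (log2 change 3.54 ± 0.44, adjusted p = 0.000661). It had 1.05, 1.21 and 3.56 CPM in total-line fetal liver HSCs, so adult values stood apart from both fetal groups.

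Of the listed factors Gata2, needed for HSC survival, had 780.1, 720.2, 631 and 491 CPM in adult marrow HSCs, against 162, 242 and 144 CPM in f-line fetal liver HSCs (log2 change 1.86 ± 0.25, adjusted p = 0.000956). The bridging factor Lmo2 had 1255, 1329, 1210.0 and 978 CPM in adult marrow HSCs, against 367, 404 and 298 CPM in f-line fetal liver HSCs (log2 change 1.76 ± 0.21, adjusted p = 0.000529). Neither gene's groups overlapped. Their partner Tal1 was higher (log2 change 1.32 ± 0.26, adjusted p = 0.00452). Nfe2, a platelet factor, was higher as well (log2 change 1.53 ± 0.21, adjusted p = 0.00104). Runx1, a master regulator of blood development, did not pass (log2 change -0.02 ± 0.25, adjusted p = 0.956).

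Stat5a, which carries thrombopoietin signals, had 233, 203, 263 and 277 CPM in adult marrow HSCs, against 77.95, 88.9 and 55.7 CPM in f-line fetal liver HSCs (log2 change 1.73 ± 0.22, adjusted p = 0.000744). Meis1, a homeobox cofactor of HSCs, had 589.7, 369, 526 and 347 CPM in adult marrow HSCs, against 112, 228 and 153 CPM in f-line fetal liver HSCs and 246, 248 and 247 CPM in total-line fetal liver HSCs. It was higher in adult marrow HSCs against both (log2 change 1.49 ± 0.30, adjusted p = 0.00489, and 0.89 ± 0.22, adjusted p = 0.00892). Within the Hox genes, Hoxa5 (log2 change 1.74) and Hoxa10 (1.35) passed as higher, while Hoxa9 (adjusted p = 0.119) and Hoxa7 (adjusted p = 0.481) did not pass.

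Prdm16, the gene the series is about, had 46.6, 20.6, 34.4 and 9.65 CPM in adult marrow HSCs, against 14.2, 32.8 and 20.6 CPM in f-line fetal liver HSCs and 42.7, 45.7 and 29.6 CPM in total-line fetal liver HSCs. The adult range took in every fetal value, and Prdm16 passed in neither comparison (log2 change 0.32 ± 0.48, adjusted p = 0.645, and -0.50 ± 0.45, adjusted p = 0.388). Its direction against the f line turned without adult replicate 1, to -0.076. Gene counts do not separate its full-length from its short form. Mecom, its closest relative, had 163, 88.5, 146 and 75.2 CPM in adult marrow HSCs, against 36.7, 116 and 91.5 CPM in f-line fetal liver HSCs and did not pass (log2 change 0.55 ± 0.40, adjusted p = 0.313). Of 10 PRDM family members tested, Prdm2 was higher (log2 change 1.05 ± 0.21, adjusted p = 0.00483) and Prdm4 lower (-0.67 ± 0.20, adjusted p = 0.0274). These shares of 10% each lie below the 15.7% and 15.2% of all genes. The call for Prdm4 was lost without adult replicate 2 or 3 or f-line replicate 1 or 2. Neither passed against the total line (adjusted p = 0.276 and 0.0647). Hlf, a factor of primitive HSCs, had 455, 333, 329 and 190.3 CPM in adult marrow HSCs, against 92.3, 245 and 175 CPM in f-line fetal liver HSCs and missed the threshold (log2 change 0.95 ± 0.36, adjusted p = 0.0693). Mycn, which was lower against the total line (adjusted p = 0.0143), missed it against the f line (log2 change -0.68 ± 0.24, adjusted p = 0.056).

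Surface receptors of HSCs were mostly higher among those that passed. Of 43 tested, 19 were higher and 4 lower in adult marrow HSCs (median 0.77 log2), with 17 and 2 holding against both fetal groups. Slamf1, the SLAM receptor CD150 that marks long-term HSCs and was not part of the listed gate, had 48.3, 36.7, 35.02 and 16.99 CPM in adult marrow HSCs, against 3.78, 8.78 and 5.33 CPM in f-line fetal liver HSCs and 5.59, 6.15 and 17.3 CPM in total-line fetal liver HSCs. It was higher than in the f line with no overlap (log2 change 2.53 ± 0.42, adjusted p = 0.00227); against the total line the lowest adult value lay just below the highest fetal one (log2 change 1.82 ± 0.49, adjusted p = 0.0135).

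Itga2b, the integrin CD41, had 271, 351, 224 and 292 CPM in adult marrow HSCs, against 33.2, 34.2 and 30.3 CPM in f-line fetal liver HSCs (log2 change 3.14 ± 0.22, adjusted p = 3.93e-05). Procr, the protein C receptor EPCR on primitive HSCs, had 108, 185, 113 and 83.2 CPM in adult marrow HSCs, against 10.3, 37.5 and 35.4 CPM in f-line fetal liver HSCs (log2 change 2.15 ± 0.44, adjusted p = 0.00576). Gpr56, an adhesion receptor of HSCs, had 3863, 2973, 4184 and 3313 CPM in adult marrow HSCs, against 848, 1267 and 862 CPM in f-line fetal liver HSCs (log2 change 1.86 ± 0.25, adjusted p = 0.000842). None of these 3 overlapped between adult and f-line libraries.

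Receptors shared with endothelium moved with them. Esam had 198, 210.4, 217 and 241 CPM in adult marrow HSCs, against 11.7, 62.9 and 38.7 CPM in f-line fetal liver HSCs (log2 change 2.53 ± 0.46, adjusted p = 0.0034). Robo4, a bone marrow homing receptor, had 72.3, 52.6, 59.8 and 53.7 CPM in adult marrow HSCs, against 2.77, 14.6 and 13.6 CPM in f-line fetal liver HSCs (log2 change 2.54 ± 0.49, adjusted p = 0.00434). Eng, endoglin, was higher too (log2 change 1.12 ± 0.22, adjusted p = 0.00438). Kit, used in the sort, did not pass (log2 change 0.93 ± 0.37, adjusted p = 0.0798), nor did Cd34 (0.26 ± 0.21, adjusted p = 0.36). Cd93 passed as higher (log2 change 0.85 ± 0.24, adjusted p = 0.0225) but lost its call without any 1 of the 3 f-line libraries.

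Lower in adult marrow HSCs were Ly6a, Itgam, Cd48 and Jam3. Ly6a, which encodes the Sca-1 antigen used in the sort, had 118, 177, 149 and 214 CPM in adult marrow HSCs, against 209.7, 573 and 316 CPM in f-line fetal liver HSCs (log2 change -1.14 ± 0.33, adjusted p = 0.0243). Adult replicate 4 lay just above f-line replicate 1, and the call was lost without adult replicate 1, 2 or 3 or f-line replicate 2. Itgam, the integrin Mac-1 carried by fetal liver HSCs and by myeloid cells, had 21.8, 16.3, 12.9 and 28.5 CPM in adult marrow HSCs, against 109.7, 45.03 and 115 CPM in f-line fetal liver HSCs and 36.1, 33.5 and 25.5 CPM in total-line fetal liver HSCs. It passed against the f line (log2 change -2.16 ± 0.36, adjusted p = 0.00233) and not against the total line (-0.67 ± 0.29, adjusted p = 0.0831). Granulocyte genes were low in 2 of 3 total-line libraries, and the part of myeloid cells in the Itgam values was not tested. Jam3, a junctional adhesion molecule, was lower against both fetal groups (log2 change -1.43 ± 0.29, adjusted p = 0.00543, and -1.72 ± 0.20, adjusted p = 0.000155). Cd48, selected against in the sort, had 15.3, 20.9, 11.6 and 21.9 CPM in adult marrow HSCs, against 173, 21.8 and 42.6 CPM in f-line fetal liver HSCs. Its lower level (log2 change -2.17 ± 0.58, adjusted p = 0.0182) came with f-line replicate 1 far above the rest. The call was lost without that library, and Cd48 did not pass against the total line (adjusted p = 0.941).

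Platelet and megakaryocyte genes were higher in adult marrow HSCs. Of 25 members, all tested, 19 were higher and none lower (median 1.93 log2), 15 of them against both fetal groups. Their summed level was 3426, 3217, 3522 and 3255 CPM in adult marrow HSCs, against 1201, 1609.7 and 1911 CPM in f-line fetal liver HSCs. The adult and f-line sums did not overlap.

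Gp5, a subunit of the platelet receptor for von Willebrand factor, had 58.1, 78.6, 54.5 and 97.5 CPM in adult marrow HSCs, against 1.35, 2.17 and 1.14 CPM in f-line fetal liver HSCs (log2 change 5.54 ± 0.37, adjusted p = 3.65e-05). Its partner Gp1ba had 17.6, 15.4, 16.1 and 17.1 CPM in adult marrow HSCs, against 1.66, 1.96 and 1.08 CPM in f-line fetal liver HSCs (log2 change 3.41 ± 0.35, adjusted p = 0.000309), and Gp1bb and Gp9, which complete the complex, were higher by 3.97 and 2.12 log2 (adjusted p = 0.00092 and 0.00578). Gata1, the transcription factor of red cells and megakaryocytes, had 35.9, 43.4, 35.5 and 56.3 CPM in adult marrow HSCs, against 10.3, 8.23 and 6.58 CPM in f-line fetal liver HSCs (log2 change 2.37 ± 0.28, adjusted p = 0.000512). In every library of both fetal groups these genes lay below the lowest adult value.

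Vwf, which marks platelet-biased adult HSCs, had 101, 23.7, 92.3 and 27.9 CPM in adult marrow HSCs, against 5.21, 26.8 and 16.5 CPM in f-line fetal liver HSCs. Adult replicates 1 and 3 were high, replicate 2 lay within the f-line range and replicate 4 just above it, and the call (log2 change 1.93 ± 0.65, adjusted p = 0.0451) was lost without adult replicate 1 or 3 or f-line replicate 1 or 3. The granule chemokine Pf4 had 43.6, 109, 58.6 and 83.6 CPM in adult marrow HSCs, against 14.4, 47.8 and 108 CPM in f-line fetal liver HSCs and did not pass (adjusted p = 0.614). Ppbp, another, overlapped as well and did not pass (adjusted p = 0.581).

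Every gene of both cell cycle lists that passed was lower in adult marrow HSCs than in f-line fetal liver HSCs. Of 35 tested G2 and mitosis genes, 31 were lower and none higher (median -1.39 log2), 23 against both fetal groups. They summed to 2184, 2643, 2744 and 3182 CPM in adult marrow HSCs, against 7254, 6439 and 5564 CPM in f-line and 4465, 4385 and 4852 CPM in total-line fetal liver HSCs. Adult sums were below all fetal sums.

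Hmmr, a spindle protein, had 31.3, 25.9, 27.98 and 30.3 CPM in adult marrow HSCs, against 146, 116 and 115 CPM in f-line fetal liver HSCs (log2 change -2.11 ± 0.18, adjusted p = 0.000152). Bub1, a spindle checkpoint kinase, had 19.5, 14.2, 22.7 and 27.5 CPM in adult marrow HSCs, against 125, 98.5 and 103 CPM in f-line fetal liver HSCs (log2 change -2.36 ± 0.24, adjusted p = 0.000309). The condensin subunit Smc2 had 62.8, 78.7, 57.1 and 55.1 CPM in adult marrow HSCs, against 237, 199 and 227 CPM in f-line fetal liver HSCs (log2 change -1.79 ± 0.19, adjusted p = 0.000312). All 3 were separated without overlap and also passed against the total line. Cyclins Ccna2 and Ccnb1 fell by 1.47 and 1.66 on the log2 scale (adjusted p = 0.00123 and 0.00249). Mki67, the proliferation antigen, had 113, 126, 57.5 and 57.8 CPM in adult marrow HSCs, against 124, 78.7 and 94.8 CPM in f-line fetal liver HSCs and did not pass (log2 change -0.15 ± 0.31, adjusted p = 0.733), at a change near 0 whose sign turned with scaling and with single libraries.

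Of 35 tested S-phase genes, 17 were lower and none higher (median -0.77 log2), and 9 against both fetal groups. The count depended on single libraries, with 28 lower without adult replicate 4 and 10 without f-line replicate 1. Sums were 2854, 4284, 5017 and 6576 CPM in adult marrow HSCs and 9338, 8348 and 7698 CPM in f-line fetal liver HSCs, with adult replicate 4 nearest the f line. In total-line fetal liver HSCs they were 5959, 6260 and 5464 CPM, so adult replicate 4 lay above all 3 of these. Cyclins that start replication were lower. Ccne1 had 6.67, 6.83, 13.4 and 20.8 CPM in adult marrow HSCs, against 92.9, 66.1 and 67.7 CPM in f-line fetal liver HSCs (log2 change -2.65 ± 0.39, adjusted p = 0.00132). Ccne2 had 16.9, 20.1, 25.3 and 37.6 CPM in adult marrow HSCs, against 139.8, 104 and 123 CPM in f-line fetal liver HSCs (-2.28 ± 0.28, adjusted p = 0.000617). Rrm2, which makes deoxynucleotides, had 40.2, 60.7, 69.3 and 128 CPM in adult marrow HSCs, against 611, 312 and 406 CPM in f-line fetal liver HSCs (log2 change -2.55 ± 0.38, adjusted p = 0.00127). Of the MCM helicase subunits Mcm4 was lower (log2 change -1.29 ± 0.23, adjusted p = 0.00306), while Mcm2, Mcm5, Mcm6 and Mcm7 did not pass (adjusted p from 0.0851 to 0.198).

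**Figure D3:**
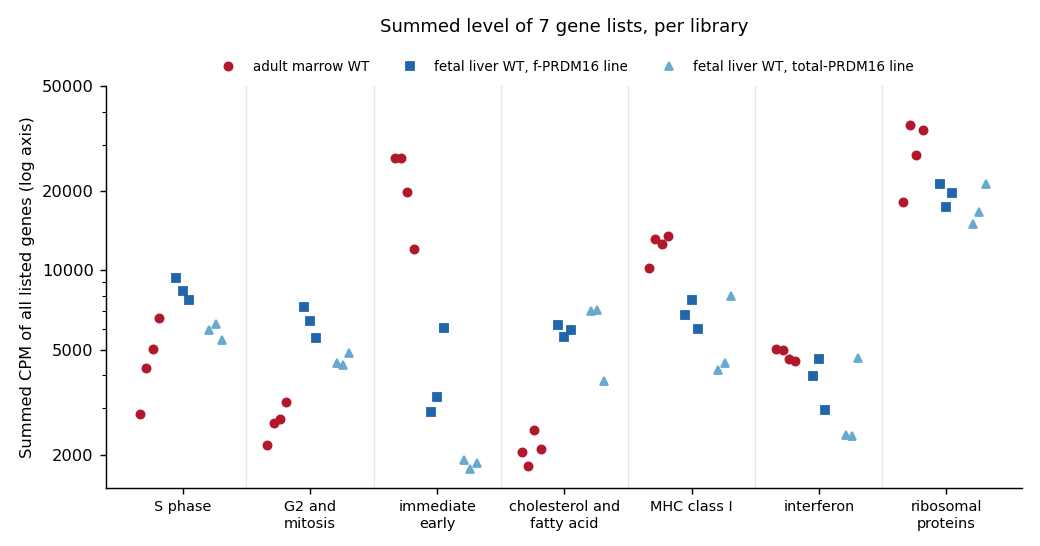
Summed level of 7 gene lists in each library, in CPM on a log axis, for adult marrow HSCs, f-line fetal liver HSCs and total-line fetal liver HSCs. Immediate early and MHC class I sums are higher in adult marrow HSCs than in either fetal group, and mitosis and cholesterol sums are lower, with each adult library on its own side.

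Genes linked to rest from the cycle were higher in part. Of 24 tested, 10 were higher and 2 lower in adult marrow HSCs (median 0.95 log2), and each of these held against both fetal groups. Without f-line replicate 1, 6 were higher. Cdkn2c, the inhibitor p18 of CDK4 and CDK6, had 23.9, 28.4, 25.6 and 35.4 CPM in adult marrow HSCs, against 1.40, 1.89 and 3.03 CPM in f-line fetal liver HSCs (log2 change 3.76 ± 0.36, adjusted p = 0.000202). Cdkn1b, the inhibitor p27, was higher too (log2 change 1.91 ± 0.47, adjusted p = 0.0128), a call lost without f-line replicate 1. Cdkn1a, the p53 target p21, did not pass (adjusted p = 0.179), nor did the cyclins Ccnd1, Ccnd2 and Ccnd3 (adjusted p = 0.52, 0.656 and 0.53).

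Ndrg1, a stress and differentiation gene, had 267, 319, 284 and 277 CPM in adult marrow HSCs, against 8.96, 7.66 and 27.1 CPM in f-line fetal liver HSCs (log2 change 4.31 ± 0.45, adjusted p = 0.000323). Txnip, a thioredoxin inhibitor linked to HSC quiescence, had 977, 495, 1256 and 1327 CPM in adult marrow HSCs, against 103, 171 and 155 CPM in f-line fetal liver HSCs (log2 change 2.84 ± 0.37, adjusted p = 0.00078). The antiproliferative genes Btg2 and Tob1 were higher by 2.69 and 1.52 log2. Id2, an inhibitor of helix-loop-helix factors, had 13.5, 11.7, 13.7 and 13.2 CPM in adult marrow HSCs, against 159, 61.4 and 149.8 CPM in f-line fetal liver HSCs and was lower (log2 change -3.23 ± 0.31, adjusted p = 0.000197).

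In TGF-beta and BMP signalling 7 of 24 tested members were higher and Id2 was the 1 lower, with 3 higher without f-line replicate 1 and 4 without f-line replicate 3. Ltbp3, which holds latent TGF-beta in the matrix, had 151, 159.5, 120.2 and 121 CPM in adult marrow HSCs, against 3.26, 10.7 and 5.08 CPM in f-line fetal liver HSCs and 2.40, 2.08 and 4.64 CPM in total-line fetal liver HSCs (log2 change 4.45 ± 0.41, adjusted p = 0.000185, against the f line). The ligand Tgfb3 had 5.09, 5.29, 9.17 and 5.07 CPM in adult marrow HSCs, against 1.06, 0.510 and 0.472 CPM in f-line fetal liver HSCs (log2 change 3.18 ± 0.54, adjusted p = 0.00246). The receptor Tgfbr1 did not pass (log2 change -0.68 ± 0.24, adjusted p = 0.0578).

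Immediate early genes, which are transcribed within minutes of a stimulus, were much higher in adult marrow HSCs. Of 32 tested, 20 were higher and 1 lower (median 1.88 log2), with 19 and 1 holding against both fetal groups. They summed to 26601, 26669.6, 19852 and 12074 CPM in adult marrow HSCs, against 2895, 3309 and 6063 CPM in f-line and 1911, 1764 and 1853 CPM in total-line fetal liver HSCs. Adult replicate 4 was the lowest of its group and f-line replicate 3 the highest of its own, and the sums still did not overlap.

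Promoters of 2 of these genes are shown for the response elements they hold. Fos and Zfp36 lie at chr12:85473640-85473889 (plus strand) and chr7:28379229-28379478 (minus strand) of RefSeq's GRCm38.p6, each the 250 bases before the start. Capitals mark the core TGACG of cyclic AMP and activating transcription factors in Fos and the serum response element, or CArG box, in Zfp36, both searched on either strand. The promoters of Jun and Dusp2, picked with these 2 for their small p, hold neither motif in the same 250 bases and are not shown.
Fos: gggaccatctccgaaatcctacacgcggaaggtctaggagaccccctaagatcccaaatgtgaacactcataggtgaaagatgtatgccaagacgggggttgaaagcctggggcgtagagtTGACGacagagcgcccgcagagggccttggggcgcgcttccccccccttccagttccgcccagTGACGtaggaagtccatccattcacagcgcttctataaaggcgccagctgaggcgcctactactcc
Zfp36: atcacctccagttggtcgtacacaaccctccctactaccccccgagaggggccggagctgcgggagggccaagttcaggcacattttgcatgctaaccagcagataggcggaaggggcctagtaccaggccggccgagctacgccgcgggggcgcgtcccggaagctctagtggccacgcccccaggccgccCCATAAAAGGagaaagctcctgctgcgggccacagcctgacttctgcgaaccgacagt
A TGACG match stands in 14 of 25 members with a promoter in the table, 56.0%, against 23.05% of the promoters of 27025 genes. A CArG box is found in 3 of 25, 12%, against 1.81%. The windows reach from 250 bases before to 50 after the start. Both motifs were chosen after sequences had been seen, and a match describes letters only.

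Fos and Jun encode the AP-1 transcription factor. Jun had 4557, 4944, 3425 and 2609 CPM in adult marrow HSCs, against 67.3, 142 and 304 CPM in f-line fetal liver HSCs and 72.96, 57.2 and 55.4 CPM in total-line fetal liver HSCs (log2 change 4.51 ± 0.53, adjusted p = 0.000494, and 5.97 ± 0.32, adjusted p = 7.82e-07). Fos had 3844, 3670.0, 3141 and 1595 CPM in adult marrow HSCs, against 141, 171 and 487 CPM in f-line fetal liver HSCs and 31.1, 30.9 and 54.7 CPM in total-line fetal liver HSCs (log2 change 3.53 ± 0.51, adjusted p = 0.00115, and 6.30 ± 0.44, adjusted p = 4.52e-06). Junb, Jund, Fosb and Fosl2 were higher as well, by 1.87, 2.62, 4.22 and 1.95 log2, though the call for Fosb was lost without f-line replicate 2. Fosl1 alone of the list was lower (log2 change -2.10 ± 0.41, adjusted p = 0.00455).

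Other members of the list limit signalling. Zfp36, which degrades cytokine messages, had 2595, 2518, 1981 and 1045 CPM in adult marrow HSCs, against 224, 259 and 523 CPM in f-line fetal liver HSCs (log2 change 2.61 ± 0.40, adjusted p = 0.00164). The MAP kinase phosphatase Dusp2 had 765, 843, 663 and 399.5 CPM in adult marrow HSCs, against 95.8, 129 and 208 CPM in f-line fetal liver HSCs (log2 change 2.22 ± 0.34, adjusted p = 0.00147). Groups did not overlap for either gene. Dusp1 and Ier2 were higher by 2.90 ± 0.49 and 2.08 ± 0.32 log2.

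Nr4a1, an orphan nuclear receptor linked to HSC quiescence, had 1901, 1221, 677 and 84.1 CPM in adult marrow HSCs, against 10.05, 16.7 and 20.8 CPM in f-line fetal liver HSCs (log2 change 5.95 ± 0.97, adjusted p = 0.00254). Its adult values were widely spread, with replicate 4 lowest and still above all f-line values. Egr1, a regulator of HSC retention and quiescence, had 2107, 1240.3, 1497 and 342 CPM in adult marrow HSCs, against 282, 446 and 817 CPM in f-line fetal liver HSCs and did not pass (log2 change 1.34 ± 0.54, adjusted p = 0.0841). Against the total line, at 284, 219.8 and 184 CPM, Egr1 was higher (log2 change 2.50 ± 0.53, adjusted p = 0.00415). Klf2 and Atf3 were also high in f-line replicate 3, with 8.88, 30.6 and 191 CPM for Klf2 and 10.6, 4.40 and 44.8 CPM for Atf3, and neither passed (adjusted p = 0.415 and 0.662). Myc did not pass either (log2 change 0.30 ± 0.28, adjusted p = 0.437).

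**Figure D4:**
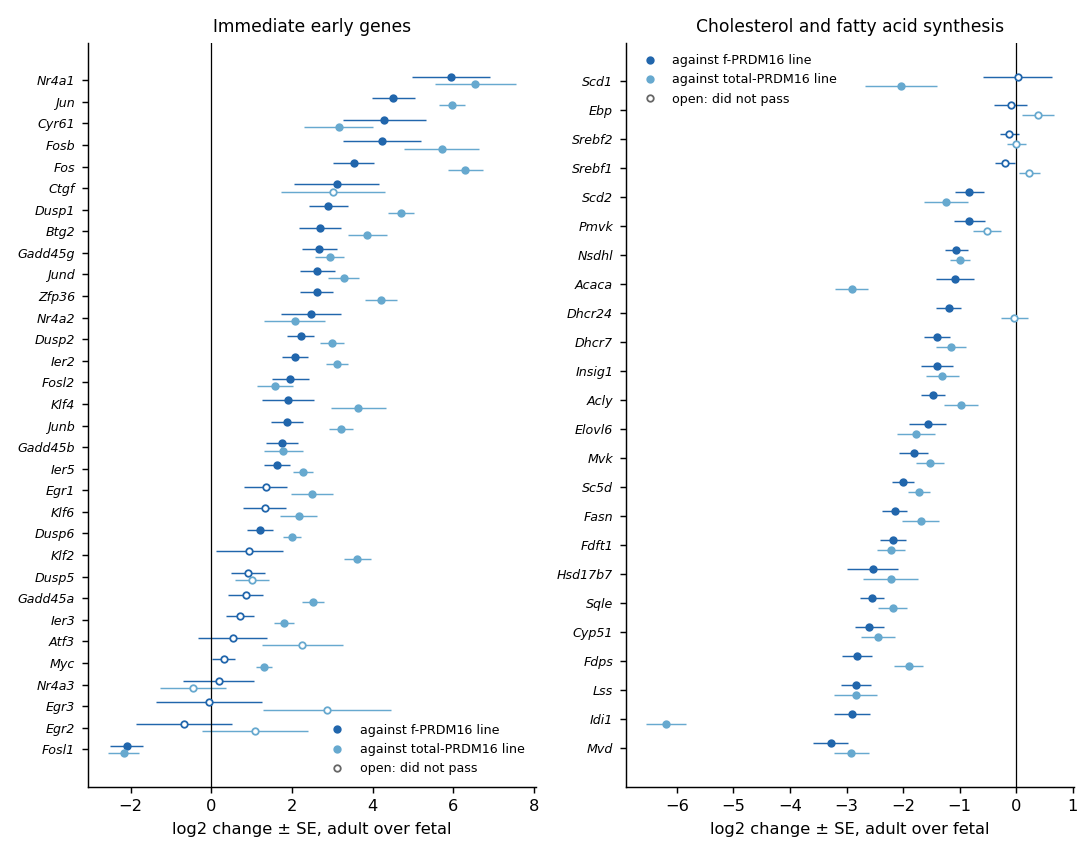
Log2 change of immediate early genes and of cholesterol and fatty acid synthesis genes in adult marrow HSCs over f-line (dark) and total-line (light) fetal liver HSCs, with bars of 1 SE. Open symbols did not pass. Most immediate early genes lie above 0 and nearly all lipid synthesis genes below 0 against both lines.

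Cholesterol and fatty acid synthesis was lower across most of the pathway in adult marrow HSCs. Of 26 tested members, 22 were lower and none higher (median -1.64 log2), 20 of them against both fetal groups, and no single library moved the count by over 1.5 times. Sums were 2048, 1819, 2487 and 2106 CPM in adult marrow HSCs, 6221, 5580.1 and 5939 CPM in f-line and 7044, 7064 and 3814 CPM in total-line fetal liver HSCs. All adult sums lay below all fetal ones.

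These genes are known targets of SREBP factors, which act with the CCAAT-binding factor NF-Y. The 250 bases before the start of 3 of them are shown, from RefSeq's GRCm38.p6: Mvd at chr8:122443423-122443672 (minus strand), Lss at chr10:76531355-76531604 (plus strand) and Cyp51 at chr5:4104698-4104947 (minus strand). Capitals mark CCAAT, or ATTGG where it lies on the other strand.
Mvd: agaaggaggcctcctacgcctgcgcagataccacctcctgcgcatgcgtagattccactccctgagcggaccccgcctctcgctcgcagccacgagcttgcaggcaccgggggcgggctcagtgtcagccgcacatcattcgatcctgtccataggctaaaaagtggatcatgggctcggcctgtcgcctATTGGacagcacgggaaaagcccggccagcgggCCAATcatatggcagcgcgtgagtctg
Lss: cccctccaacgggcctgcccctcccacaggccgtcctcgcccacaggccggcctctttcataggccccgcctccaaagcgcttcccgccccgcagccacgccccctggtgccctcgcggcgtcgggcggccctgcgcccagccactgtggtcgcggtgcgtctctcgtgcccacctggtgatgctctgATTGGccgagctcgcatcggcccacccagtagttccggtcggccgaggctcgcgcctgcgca
Cyp51: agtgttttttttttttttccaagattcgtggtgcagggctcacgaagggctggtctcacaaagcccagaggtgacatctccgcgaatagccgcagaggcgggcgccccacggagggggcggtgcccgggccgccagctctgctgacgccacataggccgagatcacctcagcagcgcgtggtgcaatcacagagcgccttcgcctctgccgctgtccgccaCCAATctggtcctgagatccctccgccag
CCAAT on either strand stands in 16 of the 18 members with a promoter in the table, 88.9%, against 41.1% of all promoters of this length, and in 12 of 25 immediate early genes, 48.0%. The sterol response element letters TCACNCCAC are in 0 of 18, against 1.44% of all, which says only that these letters are not in these windows.

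Sqle, which oxidises squalene, had 86.97, 59.6, 96.97 and 60.5 CPM in adult marrow HSCs, against 449, 459 and 443 CPM in f-line fetal liver HSCs and 398, 407 and 233 CPM in total-line fetal liver HSCs (log2 change -2.55 ± 0.22, adjusted p = 0.000147, and -2.19 ± 0.26, adjusted p = 0.000168). Mvd, the mevalonate decarboxylase, had 8.14, 13.2, 5.55 and 10.7 CPM in adult marrow HSCs, against 83.1, 78.2 and 116 CPM in f-line fetal liver HSCs (log2 change -3.28 ± 0.30, adjusted p = 0.000185). Lss, which closes the sterol rings, had 25.98, 14.4, 30.4 and 27.9 CPM in adult marrow HSCs, against 169, 159 and 202 CPM in f-line fetal liver HSCs (log2 change -2.83 ± 0.26, adjusted p = 0.000185). No adult library overlapped with a fetal library of either line for these 3 enzymes. Fdps, upstream of squalene, had 30.3, 62.6, 42.8 and 55.1 CPM in adult marrow HSCs, against 336, 271 and 404 CPM in f-line fetal liver HSCs (log2 change -2.81 ± 0.26, adjusted p = 0.000188).

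Fatty acid synthase, Fasn, had 119, 140.1, 124 and 127 CPM in adult marrow HSCs, against 778, 496 and 437 CPM in f-line fetal liver HSCs (log2 change -2.15 ± 0.22, adjusted p = 0.000299). The messages of the controlling factors did not pass, with log2 changes of -0.20 ± 0.17 for Srebf1 (adjusted p = 0.388) and -0.12 ± 0.17 for Srebf2 (adjusted p = 0.62). Within the total line, replicate 3 was the lowest for most of these enzymes, including 561, 496 and 179 CPM for Fasn and 228, 219.6 and 83.3 CPM for Lss.

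Glycolysis genes were lower in adult marrow HSCs. Of 24 tested, 15 were lower and 3 higher (median -0.97 log2), with 13 and 3 holding against both fetal groups; without f-line replicate 3, 9 were lower. Slc16a3, the lactate exporter MCT4, had 6.70, 10.4, 9.28 and 14.5 CPM in adult marrow HSCs, against 47.6, 84.9 and 305 CPM in f-line fetal liver HSCs and 307, 278 and 37.99 CPM in total-line fetal liver HSCs (log2 change -3.82 ± 0.57, adjusted p = 0.00131). Hk2, the inducible hexokinase, had 43.1, 65.2, 42.3 and 44.1 CPM in adult marrow HSCs, against 115, 121 and 134 CPM in f-line fetal liver HSCs (log2 change -1.33 ± 0.20, adjusted p = 0.00156). Ldha, which makes lactate, was lower (log2 change -1.36 ± 0.25, adjusted p = 0.00353). The hypoxia-inducible members Slc16a3 and Bnip3 varied widely among fetal libraries. Bnip3 had 33.3, 26.3, 32.6 and 35.01 CPM in adult marrow HSCs, against 32.2, 80.2 and 198 CPM in f-line fetal liver HSCs, and its call (log2 change -1.69 ± 0.47, adjusted p = 0.0209) was lost without adult replicate 2 or f-line replicate 3. The muscle-type phosphofructokinase Pfkm had 81.5, 92.6, 94.6 and 84.00 CPM in adult marrow HSCs, against 31.6, 39.8 and 28.1 CPM in f-line fetal liver HSCs and was higher (log2 change 1.42 ± 0.20, adjusted p = 0.000959). So were the hexokinase Hk3 (log2 change 2.19 ± 0.38, adjusted p = 0.00282) and Ldhb (1.10 ± 0.30, adjusted p = 0.02), the call for Ldhb being lost without adult replicate 3 or f-line replicate 1 or 3.

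Oxidative phosphorylation changed in few members: 7 of 79 tested were lower and 1 higher, shares of 8.86% and 1.27%, both below those of all genes. Leaving out adult replicate 3, f-line replicate 1 or f-line replicate 3 left 4 lower. Against the total line 7 of 79 were higher and 9 lower. Cox4i2, the hypoxia-linked isoform of a cytochrome oxidase subunit, had 1.86, 3.01, 2.07 and 3.55 CPM in adult marrow HSCs, against 39.4, 31.6 and 85.5 CPM in f-line fetal liver HSCs and 91.6, 84.1 and 46.6 CPM in total-line fetal liver HSCs (log2 change -4.30 ± 0.41, adjusted p = 0.000193). Cytochrome c, Cycs, and the succinate dehydrogenase subunit Sdhd were lower, with log2 changes of -1.55 ± 0.29 and -0.97 ± 0.19 (adjusted p = 0.0036 and 0.00468). Ndufs1 of complex I passed against the f line (log2 change -0.99 ± 0.22, adjusted p = 0.00862) and not the total line (adjusted p = 0.0535).

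Genes for making ribosomes were lower while those for ribosomal proteins were, in part, higher. Of 29 tested genes of the MYC network and ribosome biogenesis, 15 were lower and 1 higher in adult marrow HSCs (median -0.76 log2), 11 and 1 against both fetal groups. Ncl, the nucleolar protein nucleolin, had 730.4, 742, 538 and 469 CPM in adult marrow HSCs, against 3119.6, 1680.3 and 1843 CPM in f-line fetal liver HSCs (log2 change -1.82 ± 0.27, adjusted p = 0.00137). Dkc1, which modifies ribosomal RNA, had 149.7, 124, 101 and 86.1 CPM in adult marrow HSCs, against 446, 311 and 313 CPM in f-line fetal liver HSCs (-1.62 ± 0.23, adjusted p = 0.00115). F-line replicate 1 was the highest for both. Nop58 and Nolc1, also nucleolar, were lower, with log2 changes of -1.50 ± 0.22 and -1.54 ± 0.23. The 1 higher member, Mxd4, encodes an antagonist of MYC (log2 change 1.55 ± 0.32, adjusted p = 0.00563).

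Of 83 tested cytosolic ribosomal protein genes, 24 were higher and 2 lower (median 0.58 log2). That count was not stable: 53 were higher without adult replicate 1, and 9, 6 and 11 without f-line replicates 1, 2 and 3, while upper-quartile scaling called 38 higher. Their sums were 18092, 35584, 27476 and 34083 CPM in adult marrow HSCs and 21166, 17423 and 19663 CPM in f-line fetal liver HSCs, and adult replicate 1 lay within the f-line range. Rps19, which is mutated in Diamond-Blackfan anaemia, had 369, 709, 654 and 707 CPM in adult marrow HSCs, against 264, 249 and 297 CPM in f-line fetal liver HSCs (1.19 ± 0.25, adjusted p = 0.00617). Many ribosomal proteins have processed copies in the genome that can split reads, so these values are uncertain. Mitochondrial ribosomal proteins had 19 of 77 tested lower and none higher, with 9, 3 and 12 lower without adult replicate 3, f-line replicate 1 and f-line replicate 2, and 10 under upper-quartile scaling. Mrpl50 had 58.6, 48.6, 64.4 and 69.7 CPM in adult marrow HSCs, against 127, 102 and 110.1 CPM in f-line fetal liver HSCs (log2 change -0.89 ± 0.19, adjusted p = 0.00693) and was among 3 members lower against both fetal groups.

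Chaperones split by kind. Of 24 tested, 11 were lower and 5 higher in adult marrow HSCs, 8 and 5 against both fetal groups; without f-line replicate 1, 7 were lower. Folding machines were lower. The endoplasmic reticulum chaperone Hsp90b1 had 325, 325, 323 and 313 CPM in adult marrow HSCs, against 1571, 731 and 1150.3 CPM in f-line fetal liver HSCs (log2 change -1.83 ± 0.25, adjusted p = 0.000897). Hspd1, the mitochondrial chaperonin, had 172, 193, 235 and 281 CPM in adult marrow HSCs, against 1032, 596 and 634 CPM in f-line fetal liver HSCs (log2 change -1.76 ± 0.25, adjusted p = 0.00117). Tcp1 and Cct6a of the cytosolic chaperonin were lower, with log2 changes of -1.37 ± 0.23 and -1.28 ± 0.20.

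The stress-induced Hsp70 genes were higher. Hspa1a had 15.5, 24.6, 345 and 261 CPM in adult marrow HSCs, against 1.11, 0.276 and 5.19 CPM in f-line fetal liver HSCs (log2 change 6.23 ± 1.49, adjusted p = 0.014). Its near-identical copy Hspa1b had 18.1, 33.4, 516 and 425 CPM in adult marrow HSCs, against 3.99, 2.49 and 3.47 CPM in f-line fetal liver HSCs (6.24 ± 1.30, adjusted p = 0.00781). Adult replicates 3 and 4 were high and replicates 1 and 2 much lower, though above every fetal library. Reads may be split between both copies, and the call for Hspa1a was lost without f-line replicate 1 or 2. Dnajb1, an inducible co-chaperone, was higher in the same direction (log2 change 1.59 ± 0.28, adjusted p = 0.00282).

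MHC class I genes and the machinery that loads them with peptide were higher in adult marrow HSCs. Of 23 tested, 17 were higher and 2 lower (median 1.80 log2), 11 higher against both fetal groups. Sums were 10221, 13154, 12615 and 13496 CPM in adult marrow HSCs and 6754, 7692 and 5991 CPM in f-line fetal liver HSCs, with no overlap. Against the total line 13 of 25 were higher and 5 lower. Tap1 and Tap2 form the peptide transporter. Tap2 had 361, 408, 385 and 467 CPM in adult marrow HSCs, against 102, 86.6 and 68.3 CPM in f-line fetal liver HSCs (log2 change 2.26 ± 0.21, adjusted p = 0.000185). Tap1 had 273, 279, 295 and 316 CPM in adult marrow HSCs, against 43.4, 105 and 38.8 CPM in f-line fetal liver HSCs (2.23 ± 0.34, adjusted p = 0.00163).

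B2m, the shared light chain, had 2939.9, 3640.3, 3441 and 3220.0 CPM in adult marrow HSCs, against 547, 1767 and 899 CPM in f-line fetal liver HSCs and 483, 556 and 1576 CPM in total-line fetal liver HSCs (log2 change 1.64 ± 0.36, adjusted p = 0.00781). H2-T23, the nonclassical molecule Qa-1, had 368, 431, 388 and 392 CPM in adult marrow HSCs, against 34.3, 80.4 and 32.9 CPM in f-line fetal liver HSCs (log2 change 3.01 ± 0.34, adjusted p = 0.000384). The classical heavy chain H2-K1 had 2101, 3270.3, 2742 and 3239 CPM in adult marrow HSCs, against 328, 886 and 376 CPM in f-line fetal liver HSCs (log2 change 2.43 ± 0.38, adjusted p = 0.00163). F-line replicate 2 and total-line replicate 3 were the highest fetal libraries for B2m and H2-K1. H2 genes are similar in sequence, and genes of the Q, L and T regions differ between tables, so single H2 values are uncertain; Tap1, Tap2 and B2m are single genes. The immunoproteasome subunits Psmb8 and Psmb9 were higher by 1.34 and 1.97 log2. The lower members were the chaperones Pdia3 and Canx, with log2 changes of -1.04 and -0.95. Neither passed against the total line, and the call for Canx was lost without f-line replicate 1.

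Interferon-response genes gave 17 higher and 2 lower of 49 tested (median 1.04 log2), 11 and 1 against both fetal groups. The count of higher members was 9 without adult replicate 1, 8 without f-line replicate 1 or 3, and 34 without f-line replicate 2, the f-line library highest in these genes. Irf1, a transcription factor of MHC class I and interferon genes, had 238, 222, 300.3 and 199 CPM in adult marrow HSCs, against 49.1, 66.2 and 52.4 CPM in f-line fetal liver HSCs (log2 change 2.11 ± 0.21, adjusted p = 0.000288). Gbp2, an interferon-gamma induced GTPase, had 95.7, 72.97, 102 and 76.9 CPM in adult marrow HSCs, against 5.72, 20.8 and 10.9 CPM in f-line fetal liver HSCs (log2 change 2.81 ± 0.40, adjusted p = 0.00114). Ifi47, of a related family, had 154, 151, 177 and 177 CPM in adult marrow HSCs, against 25.4, 71.1 and 36.6 CPM in f-line fetal liver HSCs (1.90 ± 0.33, adjusted p = 0.00254). None of the 3 overlapped between groups. Irf8, a myeloid factor, was lower (log2 change -2.31 ± 0.47, adjusted p = 0.00547).

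MHC class II genes were mixed, with 5 of 17 tested higher and 3 lower. Without f-line replicate 1, 8 were higher, and upper-quartile scaling gave 6 higher and none lower. Against the total line 10 of 16 were higher and 2 lower. Accessory molecules of peptide loading were higher. H2-DMa had 174, 299, 282 and 295 CPM in adult marrow HSCs, against 39.4, 18.7 and 19.5 CPM in f-line fetal liver HSCs (log2 change 3.36 ± 0.34, adjusted p = 0.000267). H2-Ob had 43.9, 36.7, 33.2 and 40.8 CPM in adult marrow HSCs, against 2.59, 4.19 and 6.16 CPM in f-line fetal liver HSCs (3.18 ± 0.34, adjusted p = 0.000323). H2-Aa, a chain of the presenting molecule itself, had 35.4, 98.3, 146 and 64.1 CPM in adult marrow HSCs, against 53.3, 3.28 and 3.08 CPM in f-line fetal liver HSCs and 0.967, 0.582 and 1.74 CPM in total-line fetal liver HSCs. With f-line replicate 1 inside the adult range it did not pass (log2 change 2.13 ± 1.00, adjusted p = 0.138); it was higher against the total line (6.27 ± 0.63, adjusted p = 5.32e-05). Ciita, the class II transactivator, had 6.46, 10.7, 13.1 and 1.70 CPM in adult marrow HSCs, against 6.81, 0.213 and 0.278 CPM in f-line fetal liver HSCs and did not pass (adjusted p = 0.262). The invariant chain Cd74 had 83.3, 214, 286 and 101 CPM in adult marrow HSCs, against 312, 478 and 354 CPM in f-line fetal liver HSCs and was lower (log2 change -1.15 ± 0.39, adjusted p = 0.046), a call lost without any 1 library other than adult replicate 3. It did not pass against the total line (log2 change 0.12 ± 0.53, adjusted p = 0.875).

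Of 30 inflammation and NF-kB genes tested, 5 were higher and 5 lower, 16.7% each, near the 15.7% and 15.2% of all genes. Upper-quartile scaling gave 6 higher and 2 lower, and against the total line 11 of 30 were higher and 1 lower. Tnfaip2 had 89.99, 80.99, 85.04 and 76.2 CPM in adult marrow HSCs, against 37.6, 21.5 and 42.2 CPM in f-line fetal liver HSCs (log2 change 1.31 ± 0.25, adjusted p = 0.00381). The chemokine Ccl2 had 5.12, 13.1, 4.46 and 2.87 CPM in adult marrow HSCs, against 0.570, 0.404 and 0.972 CPM in f-line fetal liver HSCs and was higher (log2 change 3.30 ± 0.67, adjusted p = 0.00539). Tnf was lower against the f line (log2 change -1.65 ± 0.45, adjusted p = 0.0193) and did not pass against the total line (adjusted p = 0.087). Its call was lost without f-line replicate 1 or 3.

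Cytokine receptors were mixed too, 4 higher and 6 lower of 32 tested, 3 and 6 against both fetal groups. Against the f line these are 12.5% and 18.8%, near the 15.7% and 15.2% of all genes. Csf2rb, the common beta chain for IL-3 and GM-CSF, had 57.9, 56.6, 29.9 and 30.7 CPM in adult marrow HSCs, against 385, 226 and 229 CPM in f-line fetal liver HSCs and 258, 205 and 232 CPM in total-line fetal liver HSCs (log2 change -2.66 ± 0.31, adjusted p = 0.000494). Its adult values were below all fetal ones, also in the total-line libraries low in granulocyte genes. The part of myeloid cells in this change was not tested. Ifngr2, an interferon-gamma receptor chain, had 33.4, 37.8, 33.7 and 34.6 CPM in adult marrow HSCs, against 113, 94.4 and 78.5 CPM in f-line fetal liver HSCs (log2 change -1.44 ± 0.19, adjusted p = 0.00078). Il7r, the lymphoid receptor, had 0, 0.0313, 0.181 and 0 CPM in adult marrow HSCs, against 6.01, 1.43 and 1.19 CPM in f-line fetal liver HSCs (log2 change -5.68 ± 1.20, adjusted p = 0.00657), a call lost without f-line replicate 1. Notch2 had 125, 82.99, 98.3 and 74.3 CPM in adult marrow HSCs, against 32.2, 24.7 and 19.3 CPM in f-line fetal liver HSCs and was higher (1.92 ± 0.26, adjusted p = 0.000923).

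Polycomb and other chromatin repressors gave 11 lower and 5 higher of 29 tested, 9 and 5 against both fetal groups, and 7 lower without f-line replicate 1. Against the f line 37.9% were lower, against 15.2% of all genes, and 17.2% higher, near the 15.7% of all genes. Hells, a remodelling helicase of replicating cells, had 30.6, 35.2, 32.1 and 23.4 CPM in adult marrow HSCs, against 192, 151 and 172 CPM in f-line fetal liver HSCs (log2 change -2.49 ± 0.20, adjusted p = 9.32e-05). The methyltransferases of polycomb complex PRC2 went opposite ways: Ezh2, active in dividing cells, had 66.1, 87.5, 44.8 and 61.97 CPM in adult marrow HSCs, against 147, 143 and 122 CPM in f-line fetal liver HSCs (log2 change -1.06 ± 0.23, adjusted p = 0.00706). Ezh1 had 104, 52.1, 107 and 60.1 CPM in adult marrow HSCs, against 32.2, 38.2 and 27.2 CPM in f-line fetal liver HSCs (1.32 ± 0.30, adjusted p = 0.00838). Both held against the total line (log2 change -0.84 ± 0.23, adjusted p = 0.0158, and 1.38 ± 0.29, adjusted p = 0.00442). In complex PRC1, Ring1 had 43.4, 53.7, 37.6 and 38.9 CPM in adult marrow HSCs, against 18.4, 18.8 and 19.3 CPM in f-line fetal liver HSCs (log2 change 1.21 ± 0.21, adjusted p = 0.00291) and Cbx7 was higher (1.46 ± 0.34, adjusted p = 0.0103).

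Among DNA methylation enzymes 4 of 16 tested were lower and 2 higher, where all genes had 15.2% lower and 15.7% higher. Against the total line 5 of 17 were lower and none higher, and 3 were lower against both fetal groups. Dnmt3b, a de novo methyltransferase, had 118, 129.6, 109.6 and 145 CPM in adult marrow HSCs, against 395, 342 and 299.5 CPM in f-line fetal liver HSCs and 416, 433 and 321 CPM in total-line fetal liver HSCs (log2 change -1.45 ± 0.18, adjusted p = 0.000708). Tet1, which oxidises methylcytosine, had 77.2, 48.6, 42.2 and 30.8 CPM in adult marrow HSCs, against 15.2, 20.5 and 20.3 CPM in f-line fetal liver HSCs (log2 change 1.43 ± 0.32, adjusted p = 0.00808) and did not pass against the total line (adjusted p = 0.162). Antioxidant genes and FOXO targets gave 4 higher and 4 lower of 27 tested, and 10 and 4 of 26 against the total line. Against the f line these are 14.8% each, near the 15.7% and 15.2% of all genes. Gsr, the glutathione reductase, was lower (log2 change -1.68 ± 0.27, adjusted p = 0.00195) and the stress gene Sesn3 higher (1.82 ± 0.39, adjusted p = 0.00653).

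Markers of other cell types were measured in the same libraries. Of 25 granulocyte genes tested, 20 were lower in adult marrow HSCs against the f line and none higher (median -4.76 log2), with 13 lower without f-line replicate 3. Of 25 tested against the total line, 6 were lower and 3 higher. Mpo, the enzyme of neutrophil granules also made by early myeloid progenitors, had 284, 187, 42.95 and 174 CPM in adult marrow HSCs, against 5323, 1536 and 9726 CPM in f-line fetal liver HSCs and 33.9, 51.8 and 779 CPM in total-line fetal liver HSCs. It was lower than in the f line (log2 change -4.99 ± 0.71, adjusted p = 0.00109) and did not pass against the total line (-0.75 ± 0.99, adjusted p = 0.562). Later granule genes were at or near 0 in adult marrow HSCs: Olfm4 had 3 counts over the 4 adult libraries and 25.9, 37.2 and 244 CPM in f-line fetal liver HSCs, a ratio of 3697 (95% counting interval 1265 to 17929). Against the total line, with 957 counts, the ratio was 487 (166 to 2365). Counting intervals cover counting error only.

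Of 21 monocyte and macrophage genes tested, 12 were lower and 1 higher, with 7 lower without f-line replicate 1. Csf1r, the receptor for M-CSF, had 3.44, 1.72, 0.544 and 2.77 CPM in adult marrow HSCs, against 192, 24.7 and 52.7 CPM in f-line fetal liver HSCs and 10.4, 12.9 and 8.20 CPM in total-line fetal liver HSCs (log2 change -5.38 ± 0.76, adjusted p = 0.0011, and -2.31 ± 0.55, adjusted p = 0.00811). The 1 higher member was Cd163, a scavenger receptor, with 19.7, 9.05, 17.8 and 5.50 CPM in adult marrow HSCs, against 0.0518, 0.170 and 0.167 CPM in f-line fetal liver HSCs (log2 change 6.61 ± 0.70, adjusted p = 0.000323). Of 12 mast cell and basophil genes tested, 3 were lower and 1 higher. They summed to 495 to 1507 CPM in adult marrow HSCs, 622 to 1214 CPM in f-line and 483 to 867 CPM in total-line fetal liver HSCs, ranges that overlapped. The 1 higher member was Fcer1a, a chain of the IgE receptor (log2 change 3.93 ± 1.33, adjusted p = 0.0473), a call lost without any 1 library other than f-line replicate 1. Hdc, which makes histamine, had 2.92, 1.41, 1.92 and 1.42 CPM in adult marrow HSCs, against 343, 67.8 and 161 CPM in f-line fetal liver HSCs and 239, 83.3 and 99.2 CPM in total-line fetal liver HSCs (log2 change -6.62 ± 0.55, adjusted p = 0.000132). The tryptase Tpsb2 had no count in adult marrow HSCs and 144, 44.9 and 7.22 CPM in f-line fetal liver HSCs, at least 2541-fold lower at the floor of 3 counts per group.

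Of 8 hepatocyte markers tested against the f line, 3 were higher in adult marrow HSCs and 1, Dlk1, was lower. Those are 37.5% and 12.5%, against 15.7% and 15.2% of all genes. Against the total line 2 of 16 were higher and 8 lower. Hepatocyte markers summed to 154.8, 173.9, 180.8 and 228.7 CPM in adult marrow HSCs. Sums were 424, 663 and 430.2 CPM in f-line and 789, 744 and 622 CPM in total-line fetal liver HSCs, with Dlk1 included. Dlk1 alone had 348, 594 and 354 CPM in f-line and 395, 454 and 569 CPM in total-line fetal liver HSCs. It had 1.70 to 3.37 CPM in adult marrow HSCs, so most of each f-line sum is this gene. Alb, the liver's main product, had 0, 0, 0.435 and 0.106 CPM in adult marrow HSCs, 0.0518, 0 and 0 CPM in f-line and 44.9, 25.8 and 0.0698 CPM in total-line fetal liver HSCs, so it was near 0 in the f line and present in 2 total-line libraries. Afp, the fetal albumin-like protein, had 6.53, 10.1, 10.1 and 7.77 CPM in adult marrow HSCs, against 15.5, 11.7 and 17.04 CPM in f-line fetal liver HSCs and 119, 80.2 and 13.05 CPM in total-line fetal liver HSCs. It did not pass in the main comparison (adjusted p = 0.0773) and was lower against the total line (log2 change -3.03 ± 0.59, adjusted p = 0.00268). In the f line and in total-line replicate 3 Dlk1 was high, Alb was near 0 and Afp lay above every adult value. The part of liver cells in the Dlk1 values was not tested. Hnf4a, a liver transcription factor, had 36.8, 41.6, 49.1 and 76.3 CPM in adult marrow HSCs, against 8.65, 21.6 and 12.2 CPM in f-line fetal liver HSCs and 7.02, 6.81 and 7.64 CPM in total-line fetal liver HSCs. It was higher in adult marrow HSCs against both (log2 change 1.86 ± 0.37, adjusted p = 0.00512, and 2.83 ± 0.29, adjusted p = 6.74e-05). Apob, another listed marker, had 8.28, 2.72, 5.36 and 3.33 CPM in adult marrow HSCs and no count in f-line fetal liver HSCs. That makes it at least 198-fold higher, at the floor of 3 counts per group (adjusted p = 0.00072). Against the total line, at 6.47, 3.28 and 0.140 CPM, Apob did not pass (adjusted p = 0.627).

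Erythroid genes summed to 1299 to 2194 CPM in adult marrow HSCs, 609 to 833 CPM in f-line and 3945 to 4731 CPM in total-line fetal liver HSCs. The total-line sums are not comparable with the others. In that group Hba-a1 and Hba-a2 had 19018 counts each, and Hbb-b1 and Hbb-b2 132610 and 132608. These globins had 0 counts in adult marrow and f-line fetal liver HSCs. Of 18 erythroid genes tested, 7 were higher and 3 lower against the f line, and 5 and 8 of 23 against the total line. Car2, a carbonic anhydrase, had 1634, 1119, 1839 and 1249 CPM in adult marrow HSCs, against 172, 414 and 548 CPM in f-line fetal liver HSCs (log2 change 1.96 ± 0.38, adjusted p = 0.00432). Tfrc, the transferrin receptor, had 40.9, 24.02, 29.1 and 42.6 CPM in adult marrow HSCs, against 418, 113 and 196 CPM in f-line fetal liver HSCs and was lower (-2.81 ± 0.40, adjusted p = 0.00115). The embryonic globin Hbb-y was at or below 0.362 CPM in every library, and Hbb-bh1 had no count in adult marrow HSCs.

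Lymphoid genes were mixed. Of 12 B-lymphoid genes tested, 2 were higher and 2 lower, 16.7% each, and 5 and 5 of 12 against the total line. Of 15 T and NK genes tested, 3 were higher and 3 lower, 20% each. All genes had 15.7% higher and 15.2% lower. The lower B-lymphoid genes included Bank1 (log2 change -3.52 ± 0.65, adjusted p = 0.00366) and Il7r, given above. Dntt, the terminal transferase of early lymphoid progenitors, had 6.25, 8.30, 6.23 and 4.82 CPM in adult marrow HSCs, against 0, 0 and 0.111 CPM in f-line fetal liver HSCs (log2 change 7.41 ± 1.01, adjusted p = 0.000956), and Gata3 was higher with 49.2, 48.3, 37.01 and 30.7 CPM in adult marrow HSCs, against 7.61, 12.8 and 11.7 CPM in f-line fetal liver HSCs (1.96 ± 0.28, adjusted p = 0.00122). Tcf7 had 1.13, 0.658, 1.23 and 1.84 CPM in adult marrow HSCs, against 21.1, 12.3 and 16.5 CPM in f-line fetal liver HSCs and was lower (-3.76 ± 0.43, adjusted p = 0.000428). Cd3e, which defines T cells, had 6 counts over the 4 adult libraries and 3 over the 3 f-line ones.

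Endothelial markers were higher in 11 and lower in 2 of 21 tested, with 7 higher without f-line replicate 3, and several are HSC receptors. Cdh5, which defines endothelium, had 1.10, 1.25, 0.580 and 0.461 CPM in adult marrow HSCs, against 0.777, 2.32 and 2.75 CPM in f-line fetal liver HSCs and did not pass (adjusted p = 0.216). Against the total line, at 8.49, 9.93 and 4.36 CPM, it was lower without overlap (log2 change -3.15 ± 0.52, adjusted p = 0.00114). Of 14 stromal genes tested, 3 were higher and 1 lower, 21.4% and 7.14%, against 15.7% and 15.2% of all genes. Cxcl12, the niche chemokine, had 4.71, 16.9, 1.59 and 69.8 CPM in adult marrow HSCs and no count in f-line fetal liver HSCs, at least 933-fold higher. The collagen Col1a2 had 15.9, 2.00, 12.2 and 2.80 CPM in adult marrow HSCs, against 0.363, 0.383 and 1.22 CPM in f-line fetal liver HSCs (log2 change 3.66 ± 0.88, adjusted p = 0.0118), a call lost without f-line replicate 1. The part of stromal cells in the other results was not tested.

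**Figure D5:**
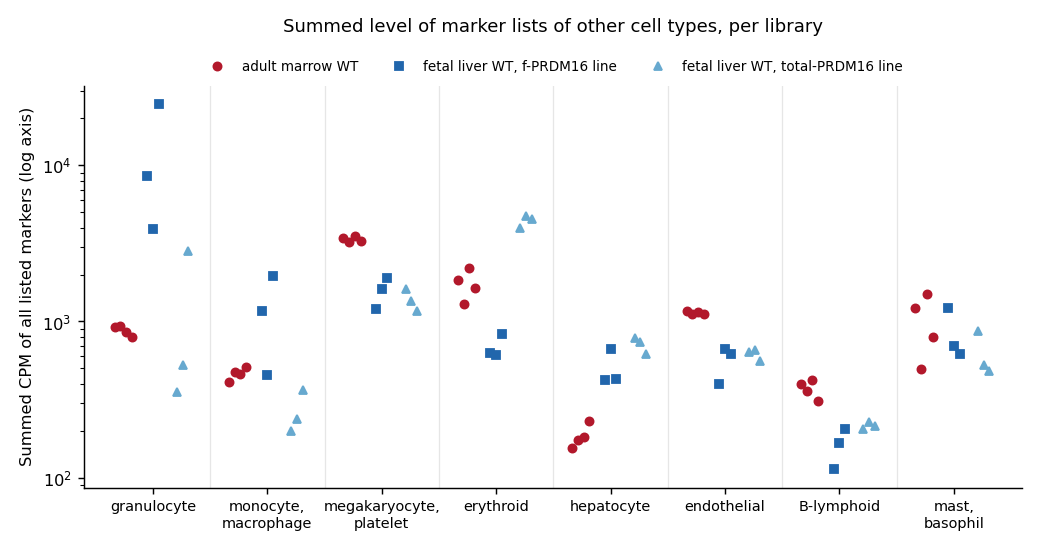
Summed level of 8 marker lists of other cell types in each library, in CPM on a log axis, for adult marrow HSCs, f-line fetal liver HSCs and total-line fetal liver HSCs. Granulocyte sums are highest in the f line, at 8612, 3905 and 24642 CPM, and megakaryocyte sums are highest in adult marrow HSCs, at 3217 to 3522 CPM. Total-line erythroid sums hold adult globin counts that are 0 in both other groups. Most of each f-line hepatocyte sum is Dlk1.

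Several of the largest changes that held against both fetal groups without overlap lay outside the lists. Sdsl, a serine dehydratase-like enzyme, had 124, 219, 157 and 218 CPM in adult marrow HSCs, against 0.259, 1.19 and 0.972 CPM in f-line fetal liver HSCs and 0.294, 0.416 and 1.47 CPM in total-line fetal liver HSCs (log2 change 7.79 ± 0.52, adjusted p = 3.65e-05), the largest increase among such genes with a mean log2 CPM of at least 3. Rgs1, which damps G-protein signals of chemokine receptors, had 2457, 2018, 1272 and 546 CPM in adult marrow HSCs, against 16.99, 8.51 and 31.4 CPM in f-line fetal liver HSCs (log2 change 6.39 ± 0.68, adjusted p = 0.000323). Sox6, a factor of adult red cell formation that represses embryonic globin, had 73.9, 55.2, 69.5 and 35.4 CPM in adult marrow HSCs, against 0.492, 1.28 and 0.472 CPM in f-line fetal liver HSCs and 12.1, 10.1 and 10.95 CPM in total-line fetal liver HSCs. Its change was 6.27 ± 0.49 log2 (adjusted p = 7.98e-05) against the f line and 2.40 ± 0.28 log2 (adjusted p = 0.000142) against the total line.

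Hes1, a Notch target, had 132, 44.9, 72.6 and 10.4 CPM in adult marrow HSCs, against 0.647, 0.404 and 3.30 CPM in f-line fetal liver HSCs (log2 change 5.51 ± 1.04, adjusted p = 0.00473). Nwd1 and Otos were higher by 5.14 ± 0.49 and 5.26 ± 0.49 log2. Among the decreases Cnn3, an actin-binding calponin, had 6.12, 11.5, 6.27 and 9.93 CPM in adult marrow HSCs, against 177, 138 and 217 CPM in f-line fetal liver HSCs and 189, 199 and 103 CPM in total-line fetal liver HSCs (log2 change -4.38 ± 0.29, adjusted p = 3.65e-05). The other decreases include genes that myeloid cells express: Lgals3, F13a1, Igsf6 and Anxa3 had log2 changes of -4.97 ± 0.67, -6.06 ± 0.91, -5.52 ± 0.74 and -4.28 ± 0.54 against the f line. Against the total line, where granulocyte sums were lower, their log2 changes were -2.70 ± 0.30, -2.15 ± 0.56, -2.42 ± 0.79 and -1.80 ± 0.45. The part of myeloid cells in these 4 was not tested.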

How the data were processed

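Counts per gene symbol in 3 tables were analysed as the authors deposited them. Per the submitters' processing notes, reads went through bcl2fastq 2.17, TopHat and mm9, with DESeq named as well; the counter, annotation and strand setting are not given in the sources used here. Rows for 92 spike-in sequences were dropped, and symbols were matched exactly: 23951 are shared by the adult and f-line tables and 22362 with the total-line table, which holds 26 names turned into dates. Each comparison was fitted alone with edgeR 4.0.16 (filterByExpr, TMM, robust quasi-likelihood, Benjamini-Hochberg, threshold 0.05) in R 4.3.3, and DESeq2 1.42.0 was an alternative. The SE is the log2 change divided by the square root of F. CPM divide counts by library total and TMM factor.

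The members and the gene lists were chosen with earlier results of these data known. Genes were named by a rule: anchors, for each direction at most 10 of the largest changes that passed against both fetal groups without overlap, at a mean log2 CPM of at least 3 (leaving out sex-linked, Gm, Rik and similar names and hepatocyte and erythroid genes), and up to 4 members per list with the smallest p, together 174 genes. A further 42 passing genes were named for their role after their values were seen, and members that did not pass were added freely. Some genes are counted in their lists but not reported here by name. On simulated counts the main test recovered 11.2% of genes changed 2-fold and 70.4% of those changed 4-fold among 13793 genes, with 5 unchanged genes called. Far fewer genes were changed there than passed in the data, which makes the adjusted p stricter than in the real test. Library pairs differed by more than sampling noise, with chi-square per degree of freedom from 11.6 to 189. Promoters are from RefSeq GRCm38.p6, a build other than that of the counts. Alternatives were scaling, filter, tool, thinned depth, a joint fit, a fold threshold, a replicate block and leaving out each library.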

Additional observations from a re-analysis of the deposited data

Results flagged for a closer look

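The named genes were examined in the 4 adult marrow libraries for a single value far from the rest, by Dixon's test at its 95% critical value. Of 216 groups 16 had one, and chance flags about 1 in 20. No explanation was tested for them.

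Adult replicate 1 stood low for H2-DMa, at 173.7 CPM, and for the ribosomal protein Rps19, at 369.1 CPM. The same library was high for Nwd1, at 96.65 CPM. Adult replicate 2 was high for the hexokinase Hk2, at 65.23 CPM, for the scavenger receptor Stab2 of sinusoids, at 15.0 CPM, and for the granulocyte factor Cebpe, at 1.535 CPM. It was low for the isocitrate dehydrogenase Idh1, at 40.06 CPM. Adult replicate 3 was high for H2-M3, at 68.51 CPM, and for Tgfb3, at 9.171 CPM. In each of these genes every adult library remained on the same side of every f-line library.

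The other flags lay at the floor of detection. Adult replicate 3 had 0.725 CPM of Igf2bp1, 0.1812 CPM of the mast cell protease Cma1, 0.145 CPM of Stfa1 and 0.1087 CPM of Stfa3, where the other adult libraries were at or near 0. Adult replicate 1 had 0.06872 CPM of Klrd1 and 0.1031 CPM of Olfm4, against 0 in the others. Sox17 was lowest in adult replicate 4, at 0.03547 CPM.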

How the results depend on the processing

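The counts over all genes moved by more than 1.5 times in 2 settings. Testing against a fold of 2 left 1028 genes between adult marrow and f-line fetal liver HSCs, 618 higher and 410 lower, by the construction of that test. Leaving out each library in turn gave 2574 to 4229 genes, the lowest without f-line replicate 1, whose cause was not tested. The same gave 5179 to 7165 genes against the total line, 3568 to 4824 between the fetal groups and 2026 to 2831 genes passing against both. Upper-quartile scaling shifted the median of all genes to 0.19 and the share of higher calls to 61.7%, against 50.9%; no list's median changed sign under it or under RLE size factors.

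Mki67, which did not pass, turned to 0.0056 on the log2 scale with upper-quartile scaling and ranged from -0.36 to 0.032 with 1 library left out, above 0 without adult replicate 4 or f-line replicate 1. Prdm16, which did not pass, ranged from -0.076, without adult replicate 1, to 0.65. DESeq2 called 5243 genes and the fit of all 3 groups 5180.

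Same-numbered libraries share only a number: their deviations correlated at -0.058, -0.074 and 0.004 in the main comparison. With a replicate block, which leaves out adult replicate 4, 3311 genes passed, against 6525 for the total line and 4092 between fetal groups. Of the 158 named genes that passed, 154 passed under the block and 142 in every fit that left out 1 library; of the 42 named for their role, 34 did. The self-test's 11.2% recovery of 2-fold changes came from a simulation in which far fewer genes changed than passed in the data. Adjusted p-values are stricter in that setting, so this share is not the recovery of the real test. Absence from the calls does not show that a gene is unchanged.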
